A study of Mus musculus with 12 samples.

Results

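Cytosolic ribosomal proteins were followed as a gene family across immortalised mouse preadipocytes and adipocytes with and without Acly. Members are the rows of the deposited expression table whose symbol is Rpl or Rps followed by a number, with at most 1 of the letters a, x, y or l and 1 further digit, plus Rpsa, Rplp0, Rplp1 and Rplp2. Kinases of the Rps6k family and pseudogene rows were left out. The rule gave 84 of 24341 rows, 51 for the large subunit and 33 for the small subunit, on 19 chromosomes. It uses symbols alone and no measured value.

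Each ribosome has a large subunit, which holds the peptidyl transferase centre, and a small subunit, which reads the mRNA, and nearly every ribosomal protein is present once per particle. Members therefore have to be made in matched amounts, and most of their mRNAs begin with a C followed by a run of pyrimidines, the 5′ terminal oligopyrimidine or TOP motif, through which mTORC1 and LARP1 set how well they are translated. In fat cells, ribosome supply is known to follow growth and insulin signals. RNA levels, as measured here, do not report translation.

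All 4 groups are SV40-immortalised preadipocytes that came from adipose tissue of C57Bl/6 mice, with 3 libraries each. Aclyf/f cells carry a floxed Acly gene and served as controls, and Acly-/- cells lack Acly, the enzyme that turns cytosolic citrate into acetyl-CoA. Preadipocytes were harvested on day 0 from confluent cultures in DMEM with 10% serum, and adipocytes on day 4 after an adipogenic cocktail that held rosiglitazone. The labels state neither how Acly was deleted, nor whether each genotype is 1 line, nor whether the 3 libraries are separate cultures. Where they are not, p-values reflect technical spread alone. Acly itself read, in FPKM, 89.5, 86.2 and 84.9 in Aclyf/f preadipocytes, 11.9, 12.5 and 11.9 in Acly-/- preadipocytes, 814, 722 and 724 in Aclyf/f adipocytes and 13.2, 12.8 and 11.0 in Acly-/- adipocytes, which fits the genotype labels. Which exons were removed is not given in the sources used here.

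Levels are in FPKM, a fragment count scaled by transcript length and by the mapped total of the library. Estimated depth was 7050000 to 13600000 fragments per library, and log2 values correlated at 0.986 to 0.993 between libraries of a group. The third Acly-/- preadipocyte library stood apart in its rows of small nucleolar, other short and mitochondrially encoded RNAs, counted as a single class. They took 10.5% of its FPKM, against 0.198% to 3.69% in the other 11. The 9 adipocyte markers together gave 1080 to 1147 FPKM before differentiation and 12365 to 12995 after it in Aclyf/f cells. In Acly-/- cells they gave 643 to 705 before and 6813 to 8400 after. Of the 5 endothelial and 5 mesothelial or epithelial markers, Kdr and Krt19 were the ones tested, and each list summed to at most 6.39 FPKM in any library.

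Members were among the most abundant mRNAs of these cells. Averaged over the 12 libraries, 76 of 84 were at 100 FPKM or more, 66 at 500 or more and 42 at 1000 or more, and members filled 29 of the 50 highest rows. Rpl41, which encodes a very short basic peptide of the large subunit, had the highest mean at 2733 FPKM, followed by Rpl23a at 2707 and Rps12 at 2619. At the other end, Rpl10l and Rpl39l were at the floor of 0.01 FPKM in all 12 libraries and Rpl3l was above it only in the third Aclyf/f adipocyte library, at 0.0986. These 3 are paralogs known from testis or striated muscle, and they were the members that missed the test's filter of 1 FPKM in at least 3 libraries. The other 81 were tested with limma on log2(FPKM + 1) among 11777 genes, and a gene was called at a Benjamini-Hochberg adjusted p under 0.05.

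Start regions of members were looked up in RefSeq (build GRCm38.p6), which listed 63 of 84. The 6 windows below run from 30 bases before the annotated start to 30 after, and show members whose values are described next: a pair whose change with differentiation differed between genotypes, a pair from the ribosomal stalk, and a pair not called lower in any contrast. Capitals mark the longest unbroken run of C and T that touches the 20 bases on either side of the start. Where a gene has several listed starts, the window shown is the one with the longest such run. In the counts below, a gene has a run or stretch of letters if any of its starts has it.
Rpl35, chr2:39005102-39005161, minus strand: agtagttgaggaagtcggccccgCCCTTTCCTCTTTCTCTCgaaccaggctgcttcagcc
Rps25, chr9:44407684-44407743, plus strand: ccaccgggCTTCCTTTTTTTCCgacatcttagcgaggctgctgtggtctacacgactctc
Rplp0, chr5:115559437-115559496, plus strand: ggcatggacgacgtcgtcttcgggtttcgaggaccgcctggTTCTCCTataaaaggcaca
Rplp2, chr7:141447621-141447680, plus strand: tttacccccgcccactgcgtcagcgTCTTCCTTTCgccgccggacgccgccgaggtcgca
Rpl24, chr16:55966245-55966304, plus strand: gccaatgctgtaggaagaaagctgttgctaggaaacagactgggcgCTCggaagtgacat
Rpl22l1, chr3:28805478-28805537, plus strand: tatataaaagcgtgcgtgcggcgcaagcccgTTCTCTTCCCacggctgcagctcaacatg
A run of at least 8 was found in 33 of 63 members (52.4%) and in 23.7% of 27025 genes in the same table. Within 50 bases of the start, CTTTC as written was present in 50.8% of members and 14.6% of genes, CTTTCC, which contains it, in 30.2% and 5.4%, and CTTCCG on either strand in 38.1% and 10.4%. TATAAA on either strand was present in 7.9% of members and 5.8% of genes, and CACGTG in 3.2% and 3.4%. These are matches of letters at annotated starts. The first transcribed base was not measured.

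The family took a smaller share of the transcriptome in Aclyf/f adipocytes than in the other 3 groups. Members held 18.9%, 18.1% and 17.1% of summed FPKM in the Aclyf/f preadipocyte libraries, 19.0%, 19.0% and 18.3% in Acly-/- preadipocytes, 15.0%, 14.0% and 13.7% in Aclyf/f adipocytes, and 18.6%, 17.8% and 19.1% in Acly-/- adipocytes. All 3 Aclyf/f adipocyte libraries lie under every library of the other groups, and those groups overlap one another. Adipocyte means were 14.2% ± 0.691 (SD, n = 3) for Aclyf/f and 18.5% ± 0.614 for Acly-/-, a difference of 4.28 percentage points (exact two-sided permutation p = 0.1, adjusted p = 0.16 over 8 tests, where 0.1 is the smallest p that 3 against 3 allows). Between Aclyf/f preadipocytes and adipocytes the share differed by -3.81 points (exact permutation p = 0.1, adjusted p = 0.16). For Acly-/- cells, the mean was 18.8% ± 0.400 before differentiation, and the share after it differed by -0.266 points, inside the spread (exact permutation p = 0.7, adjusted p = 0.7). With short and mitochondrially encoded RNAs left out of the sum, the means were 18.5%, 19.6%, 14.3% and 18.8% in the same order of groups. A lower share can come from less ribosomal protein mRNA per cell or from more of other mRNAs, and in bulk RNA fewer cells of a type and less RNA per cell cannot be told apart.

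**Figure D1:**
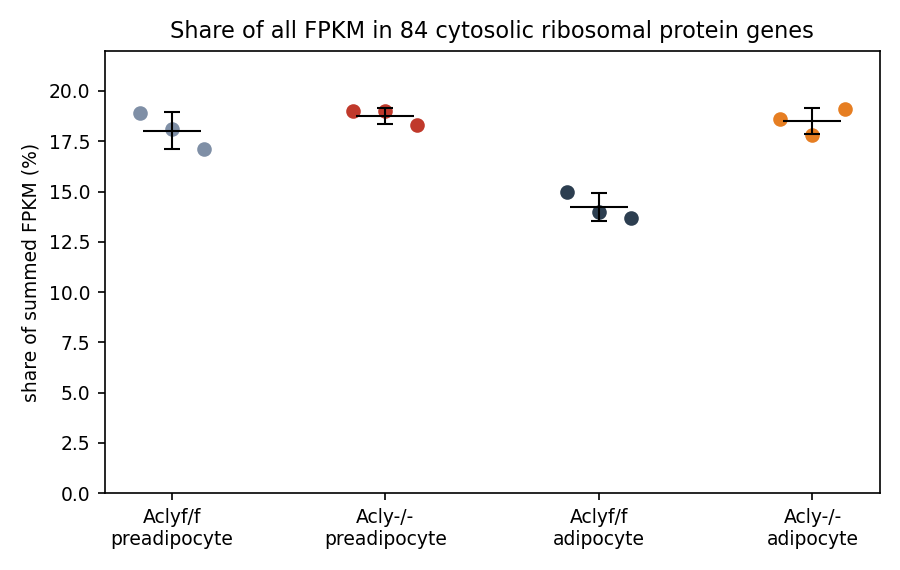
Share of each library's summed FPKM (%, vertical axis) that falls on the 84 members, for 4 groups of 3 libraries. Points are libraries, the long bar is the mean and the whiskers are 1 SD. Aclyf/f adipocytes sit at 13.7% to 15.0%, under all other libraries.

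Differentiation of Aclyf/f cells lowered most of the family by a modest amount. Of 81 members, 53 fell (65.4%) and 2 rose (2.47%), against 36.0% of all tested genes called lower and 36.5% called higher. The median member changed by -0.35 on the log2 scale, with quartiles of -0.51 and -0.19, while the median over all tested genes was -0.0018. Both subunits took part: 24 of 33 small subunit members and 29 of 48 large subunit members fell. Spread was narrow, with an SD of 0.26 across members against 1.11 across all tested genes.

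Rpl21, a large subunit protein (chr5:146832890-146837032, mm10, as deposited), fell furthest. It read, in FPKM, 587, 636 and 623 in Aclyf/f preadipocytes, 528, 526 and 493 in Acly-/- preadipocytes, 348, 329 and 291 in Aclyf/f adipocytes and 468, 477 and 552 in Acly-/- adipocytes. The Aclyf/f adipocyte libraries are the lowest 3 of the 12. The means of 615 ± 25.5 and 322 ± 29.1 (SD, n = 3) are 1.91-fold apart (log2 fold change -0.93, SE 0.09, adjusted p = 2.82e-07). Next, Rpl26 and Rpl30 followed at log2 changes of -0.86 and -0.84, but most of the signal of these members stands in copy rows, described further on. Rps4x, an X-linked protein of the small subunit, fell 1.71-fold (log2 fold change -0.77, SE 0.08, adjusted p = 7.64e-07).

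Other members did not follow. Rpl22l1, the paralog of Rpl22, rose 1.52-fold, and Rplp2, a stalk protein, rose 1.24-fold (log2 fold change 0.31, SE 0.13, adjusted p = 0.0381). That call was lost in 9 of the alternatives, with adjusted p from 0.0588 to 0.158. Rpl9 had a log2 change of 0.11 (adjusted p = 0.319) and Rpl24, which forms a bridge between subunits, 0.06 (adjusted p = 0.588). Some ribosomal proteins are encoded as fusions or under other names and fall outside the naming rule. Of 4 such genes tested, 1 rose and none fell. Fau, which encodes Rps30 fused to a ubiquitin-like protein, read, in FPKM, 1037, 876 and 711 in Aclyf/f preadipocytes, 860, 927 and 1315 in Acly-/- preadipocytes, 1501, 1042 and 1087 in Aclyf/f adipocytes and 1106, 1182 and 1236 in Acly-/- adipocytes, and rose by 0.47 (SE 0.18, adjusted p = 0.0289).

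In Acly-/- cells the same 4 days left the family near its starting level. Of 81 members, 6 rose (7.41%) and 5 fell (6.17%), against 30.4% and 31.0% of all tested genes, and the median member changed by -0.01. The 6 that rose include Rps25, Rpl22l1, Rpl24 and Rplp2, and the 5 that fell are Rplp0, Rpl34, Rps20, Rpl12 and Rps4x, of which Rps20 and Rpl12 were named after their values were seen. Rps25, a small subunit protein used in initiation on some internal ribosome entry sites, read, in FPKM, 773, 750 and 673 in Aclyf/f preadipocytes, 775, 717 and 651 in Acly-/- preadipocytes, 654, 602 and 548 in Aclyf/f adipocytes and 987, 937 and 1109 in Acly-/- adipocytes. The Acly-/- adipocyte libraries are above all others, while the Aclyf/f adipocyte libraries, at 548 to 654, overlap only the lowest Acly-/- preadipocyte library. In Acly-/- cells Rps25 rose 1.42-fold (log2 fold change 0.50, SE 0.10, adjusted p = 0.000495), and in Aclyf/f cells it fell 1.22-fold (log2 fold change -0.28, SE 0.10, adjusted p = 0.0171). Leaving out 1 library ended the second call in 3 cases: the first or second Aclyf/f preadipocyte or the third Aclyf/f adipocyte library, with adjusted p of 0.0629, 0.0544 and 0.0836.

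The response to differentiation differed between genotypes for 40 of 81 members, all toward higher values in Acly-/- cells, by the test of the difference itself. That is 49.4% of members, against 23.7% of all tested genes called in this direction and 26.4% in the other. The median difference was 0.32 on the log2 scale. Both subunits contributed, with 16 of 33 small and 24 of 48 large subunit members. Among members that share little sequence with other rows, Rpl35, which sits near the peptide exit tunnel, had one of the widest differences. Rpl35 read, in FPKM, 1888, 1883 and 1824 in Aclyf/f preadipocytes, 1601, 1569 and 1592 in Acly-/- preadipocytes, 1304, 1174 and 1134 in Aclyf/f adipocytes and 1837, 1673 and 2000 in Acly-/- adipocytes. It was lowest in Aclyf/f adipocytes, and the Acly-/- adipocyte libraries span the range of the Aclyf/f preadipocytes. Rpl35 fell 1.55-fold with differentiation in Aclyf/f cells (log2 fold change -0.63, SE 0.08, adjusted p = 1.06e-05), and the difference between genotypes was 0.84 (SE 0.12, adjusted p = 6.25e-05). The change in Aclyf/f cells was -0.40 under quantile normalization, and still called. Rpl21 differed by 0.88 (SE 0.12, adjusted p = 5.22e-05) and Rps25 by 0.78 (SE 0.14, adjusted p = 0.00038). No library is shared between the 2 differentiation contrasts, and across the 81 members their log2 changes correlated at r = 0.30 (Spearman 0.24), a description over genes that share the same 12 libraries.

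**Figure D2:**
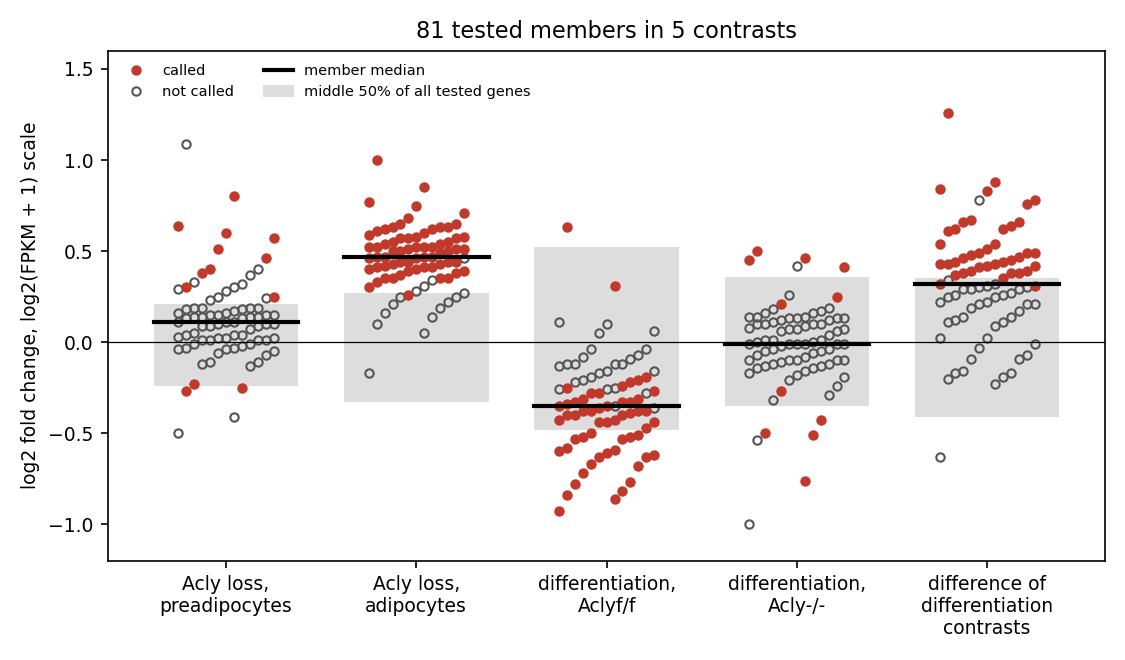
Log2 fold change of each of 81 tested members (vertical axis, log2(FPKM + 1) scale) in 5 contrasts, with filled points called at an adjusted p under 0.05. The black bar is the member median and the grey box holds the middle 50% of all tested genes. The median lies at 0.11, 0.47, -0.35, -0.01 and 0.32 from left to right.

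**Figure D3:**
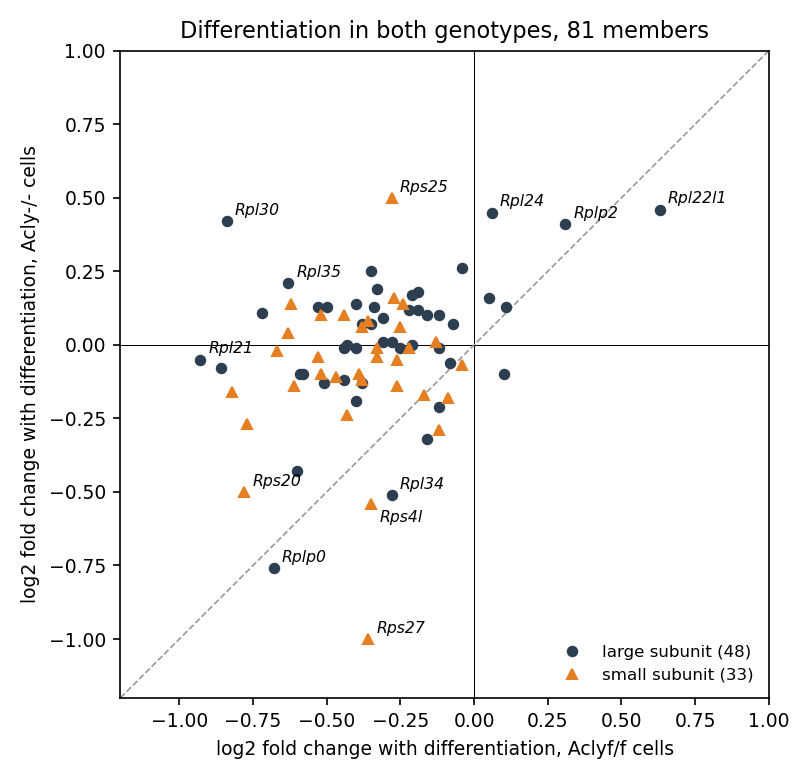
Log2 fold change with differentiation in Aclyf/f cells (horizontal axis) against that in Acly-/- cells (vertical axis) for 81 members, with circles for the large and triangles for the small subunit and a dashed line of equal change. Most points lie left of 0 and above the dashed line, and Rplp0 lies near that line at -0.68 and -0.76.

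Within adipocytes, loss of Acly went with higher levels of nearly the whole family. Of 81 members, 66 rose (81.5%) and none fell, against 25.6% of all tested genes called higher and 29.2% called lower, and the median was 0.47 against -0.02 over all tested genes. By subunit, 26 of 33 small and 40 of 48 large subunit members rose. This contrast and the differentiation of Aclyf/f cells share the 3 Aclyf/f adipocyte libraries, so the values are set side by side only. Among the 15 not called were Rpl13a at 0.05 (adjusted p = 0.788), Rpl9 at 0.16 (adjusted p = 0.163), Rplp2 at 0.10 (adjusted p = 0.517) and Rps4l at -0.17 (adjusted p = 0.626). Rps24, a small subunit protein mutated in some cases of Diamond-Blackfan anaemia, read, in FPKM, 1568, 1838 and 1758 in Aclyf/f preadipocytes, 1770, 1816 and 1605 in Acly-/- preadipocytes, 1134, 1145 and 1071 in Aclyf/f adipocytes and 1787, 1721 and 2248 in Acly-/- adipocytes. The Aclyf/f adipocyte libraries are the lowest 3 of the 12, and Rps24 was 1.72-fold higher in Acly-/- adipocytes (log2 fold change 0.77, SE 0.10, adjusted p = 3.49e-05). Under quantile normalization that difference was 0.46, and still called.

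Markers of cell state moved with this contrast. Of 9 adipocyte markers 8 were lower in Acly-/- adipocytes, and the 7 preadipocyte markers summed to 187 to 283 FPKM in Aclyf/f and 874 to 892 in Acly-/- adipocytes, with 4 of the 4 tested called higher. The 8 leukocyte and macrophage markers summed to 1.43 to 1.98 FPKM in Aclyf/f and 29.4 to 34.6 in Acly-/- adipocytes, nearly all of it from Cd68, a lysosomal protein. Ptprc and Itgam were at the floor in all 12 libraries, and Adgre1 reached 0.0292 FPKM at most. The part of cell state in the ribosomal protein values was not tested.

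In preadipocytes, loss of Acly left most of the family in place. Of 81 members 10 rose (12.3%) and 3 fell (3.70%), against 19.7% and 22.4% of all tested genes, and the median was 0.11. Among the called members, Rplp1 rose most, by 0.80 (SE 0.16, adjusted p = 0.00099), followed by Rpl22l1 at 0.64 (SE 0.15, adjusted p = 0.00382), Rps2 at 0.60 (SE 0.14, adjusted p = 0.00443) and Rplp0 at 0.57 (SE 0.10, adjusted p = 0.000392). Rps2, a small subunit protein, was named after its values were seen. The row of Rps27 was higher still, at 1.09, but was not called (adjusted p = 0.257). Those that fell were Rpl23 (-0.27), Rpl21 (-0.25) and Rpl35 (-0.23). Their calls were lost in 6, 4 and 11 of the alternatives, with adjusted p up to 0.131, 0.0938 and 0.097. Without the third Acly-/- preadipocyte library 5 members rose and none fell, and without the third or the first Aclyf/f preadipocyte library 5 or 16 rose, so the count for this contrast rests on single libraries. Rplp1, Rpl22l1 and Rplp0 were called in this contrast under each alternative run. For the other contrasts, leaving out the third Acly-/- preadipocyte library gave 68 members higher with Acly loss in adipocytes, 56 lower with differentiation in Aclyf/f cells, 7 higher and 5 lower in Acly-/- cells, and 46 for the difference.

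Stalk proteins Rplp0, Rplp1 and Rplp2 form the flexible arm of the large subunit that recruits translation factor GTPases, and they did not move as a unit. Rplp0, the base of the arm, read, in FPKM, 1531, 1558 and 1517 in Aclyf/f preadipocytes, 2048, 2132 and 2700 in Acly-/- preadipocytes, 1014, 932 and 921 in Aclyf/f adipocytes and 1353, 1305 and 1379 in Acly-/- adipocytes. The 4 groups do not overlap for Rplp0: Acly-/- cells are above Aclyf/f cells at each stage, and adipocytes are below preadipocytes in each genotype. Rplp0 fell 1.61-fold with differentiation in Aclyf/f cells (log2 fold change -0.68, SE 0.10, adjusted p = 2.20e-05) and 1.70-fold in Acly-/- cells (log2 fold change -0.76, SE 0.10, adjusted p = 1.31e-05), and the difference between genotypes was -0.07 (SE 0.14, adjusted p = 0.678). With quantile normalization the change in Aclyf/f cells was -0.41, and still called. Rplp1 (chr9:61913283-61914510) read, in FPKM, 2363, 1941 and 1764 in Aclyf/f preadipocytes, 3015, 3107 and 4607 in Acly-/- preadipocytes, 2064, 1675 and 1664 in Aclyf/f adipocytes and 2795, 2766 and 2875 in Acly-/- adipocytes. Both Acly-/- groups lie above both Aclyf/f groups, and the highest value by far is in the Acly-/- preadipocyte library that stood apart. Rplp1 was 1.56-fold higher in Acly-/- than in Aclyf/f adipocytes (log2 fold change 0.65, SE 0.16, adjusted p = 0.00305). Under quantile normalization that difference was 0.30 (adjusted p = 0.0804). Rplp2, which partners Rplp1 in the stalk dimer, read, in FPKM, 1619, 1870 and 1632 in Aclyf/f preadipocytes, 1602, 1524 and 2054 in Acly-/- preadipocytes, 2213, 2241 and 1913 in Aclyf/f adipocytes and 2456, 1962 and 2431 in Acly-/- adipocytes. Adipocytes lie above preadipocytes in Aclyf/f cells, and in Acly-/- cells the stages overlap because the third preadipocyte library reaches 2054. Rplp2 rose 1.32-fold in Acly-/- cells (log2 fold change 0.41, SE 0.13, adjusted p = 0.0126). Without the second Acly-/- preadipocyte or first Acly-/- adipocyte library the adjusted p of that rise was 0.06 or 0.0552.

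Expressed paralogs did not all follow their partners. Rpl22l1 read, in FPKM, 101, 74.8 and 60.3 in Aclyf/f preadipocytes, 132, 120 and 111 in Acly-/- preadipocytes, 114, 115 and 131 in Aclyf/f adipocytes and 168, 146 and 189 in Acly-/- adipocytes. Rpl22 (chr4:152324436-152334082), which is known to repress Rpl22l1, read 173, 179 and 170 in Aclyf/f preadipocytes, 184, 188 and 166 in Acly-/- preadipocytes, 147, 130 and 134 in Aclyf/f adipocytes and 197, 180 and 213 in Acly-/- adipocytes. Rpl22l1 was higher in adipocytes than in preadipocytes in both genotypes, whereas Rpl22 was lowest in Aclyf/f adipocytes. For Rpl22l1 the log2 change with differentiation was 0.63 (SE 0.15, adjusted p = 0.00186) in Aclyf/f and 0.46 (SE 0.15, adjusted p = 0.0168) in Acly-/- cells, and for Rpl22 it was -0.34 (SE 0.08, adjusted p = 0.00136) and 0.13 (SE 0.08, adjusted p = 0.165). With a correction for base composition, the adjusted p of Rpl22l1 was 0.106 for differentiation in Acly-/- cells and 0.178 for Acly loss in adipocytes. The first of these calls was also lost without the third Acly-/- preadipocyte library (adjusted p = 0.0579) or the third Acly-/- adipocyte library (adjusted p = 0.0758).

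Rps27l, a p53-inducible paralog of Rps27 (chr9:66946118-66949509), read, in FPKM, 432, 287 and 221 in Aclyf/f preadipocytes, 352, 424 and 363 in Acly-/- preadipocytes, 218, 170 and 198 in Aclyf/f adipocytes and 405, 373 and 391 in Acly-/- adipocytes. It was 1.99-fold higher in Acly-/- than in Aclyf/f adipocytes (log2 fold change 1.00, SE 0.18, adjusted p = 0.000395), the widest change of any tested member in that contrast, while its spread in Aclyf/f preadipocytes, 221 to 432 FPKM, was wide. Rpl7l1, a relative of Rpl7 known from nucleolar work, was at 24.2 to 36.9 FPKM, fell by 0.31 in Aclyf/f cells (SE 0.08, adjusted p = 0.00302), and rose by 0.41 with Acly loss in adipocytes (SE 0.08, adjusted p = 0.000551). Its partner Rpl7 changed by -0.58 and 0.51 in those contrasts, and by -0.38 and 0.30 under quantile normalization. Rps4l was at 0.556 to 2.98 FPKM and was called in no contrast. Its deposited locus, chr6:148047416-148444352 on mm10, spans far more than any transcript of the family, the longest of which has 3706 bases. The same holds for the loci of Rps15 (chr10:79697305-80369637), Rpl38 (chr11:114344526-114757886), Rpl31 (chr1:39367851-39478747) and Rpl5 (chr5:107900528-107987077). Whether reads of other features entered these rows was not tested.

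**Figure D4:**
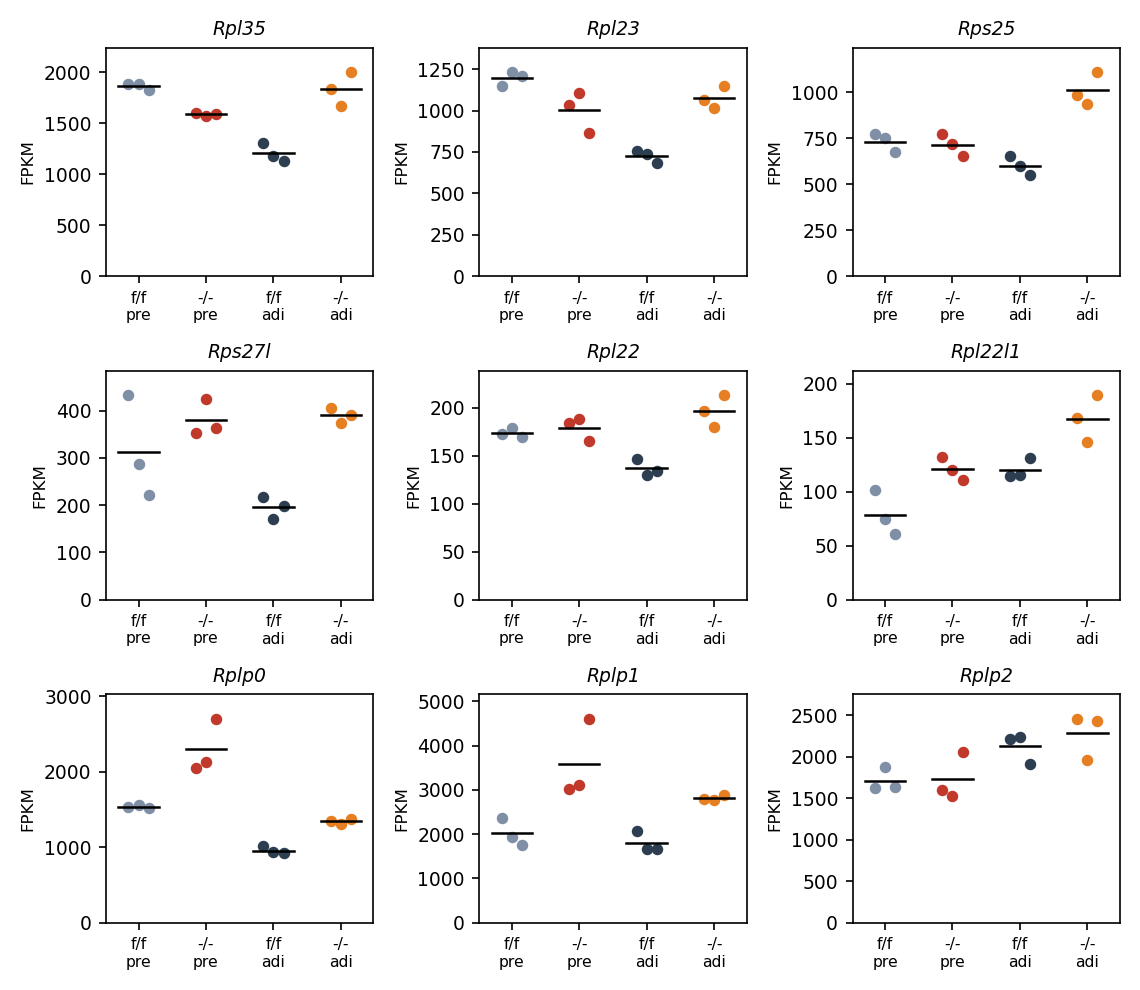
FPKM (vertical axes, from 0) of 9 members in 4 groups, with 1 point per library and a bar at the mean, where f/f is Aclyf/f, -/- is Acly-/-, pre is preadipocyte and adi is adipocyte. Rpl35, Rpl23, Rps25, Rps27l and Rpl22 are lowest on average in Aclyf/f adipocytes, Rpl22l1 and Rplp2 are higher in adipocytes, and Rplp0 falls in both genotypes.

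Some members also have roles outside the ribosome. Rpl5 and Rpl11 bind Mdm2 together with 5S rRNA when ribosome assembly is disturbed, and Rps6 is the substrate of the S6 kinases. Rpl5 read, in FPKM, 524, 532 and 519 in Aclyf/f preadipocytes, 606, 587 and 560 in Acly-/- preadipocytes, 425, 405 and 404 in Aclyf/f adipocytes and 598, 579 and 662 in Acly-/- adipocytes, lowest in Aclyf/f adipocytes, where it was 1.28-fold under preadipocytes (log2 fold change -0.35, SE 0.07, adjusted p = 0.000421). Rpl11 had a log2 change of -0.21 in Aclyf/f cells (SE 0.09, adjusted p = 0.0594), Rps6 fell there by 0.25 (SE 0.09, adjusted p = 0.022), and in Acly-/- adipocytes they were higher by 0.35 and 0.46 (adjusted p = 0.00595 and 0.00061). Under quantile normalization the Rps6 change in Aclyf/f cells was -0.10 (adjusted p = 0.181) and the Rpl11 and Rps6 differences in adipocytes were 0.10 (adjusted p = 0.208) and 0.22. The Rps6 call in Aclyf/f cells was also lost without the first Aclyf/f preadipocyte, the second Aclyf/f adipocyte or the third Aclyf/f adipocyte library (adjusted p = 0.0793, 0.0679 and 0.0972). Of 5 genes listed for p53 and ribosomal stress, 4 were higher in Acly-/- than in Aclyf/f adipocytes (80.0%, against 25.6% of all tested genes). They were led by Mdm2 at 0.71 (SE 0.07, adjusted p = 3.22e-06) and Cdkn1a, the p21 cell cycle inhibitor, at 0.65 (SE 0.09, adjusted p = 3.47e-05). These cells are immortalised with SV40, whose large T antigen binds p53.

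Changes relative to the family were tested with each library's member median subtracted, so that a called member departs from the others. In this form 14 members were called for Acly loss in preadipocytes, 14 for Acly loss in adipocytes, 30 for differentiation in Aclyf/f cells, 24 for differentiation in Acly-/- cells and 19 for the difference. The same test called 38.1%, 72.5%, 71.3%, 56.8% and 56.7% of all tested genes, which measures their distance from the ribosomal protein median. The 14 for Acly loss in adipocytes became 22 without the third Acly-/- preadipocyte library and 8 without the third Acly-/- adipocyte library. For differentiation in Aclyf/f cells, Rpl22l1 lay 0.94 above the members (SE 0.15, adjusted p = 5.16e-05) and Rplp2 0.62 above (SE 0.09, adjusted p = 1.80e-05). Rpl21 lay at -0.63 (SE 0.09, adjusted p = 1.85e-05) and Rps4x at -0.46 (SE 0.07, adjusted p = 5.15e-05). In Acly-/- cells Rplp0 was the furthest below among called members, at -0.82 (SE 0.06, adjusted p = 6.48e-08), and Rps25 stood 0.44 above (SE 0.10, adjusted p = 0.00133). Against the member median, Rplp0 was 0.48 higher with Acly loss in preadipocytes (SE 0.06, adjusted p = 3.81e-05), and 0.04 higher in adipocytes (SE 0.06, adjusted p = 0.547).

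Summed small subunit FPKM divided by summed large subunit FPKM went from 0.754 to 0.768 before differentiation to 0.689 to 0.705 after it in Aclyf/f libraries. In Acly-/- libraries it was 0.765 to 0.778 before and 0.734 to 0.743 after. Adipocyte libraries lie under preadipocyte libraries in both genotypes, and Acly-/- adipocytes lie above Aclyf/f adipocytes. The differences were -0.0622 and -0.0343 with differentiation in Aclyf/f and Acly-/- cells and 0.0395 with Acly loss in adipocytes (exact permutation p = 0.1 each, the smallest possible, adjusted p = 0.16). A protein made at 1 copy per ribosome need not have equal mRNA, and reads placed in copy rows are left out of these sums.

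Ribosomal protein genes have many processed copies, and for some members the deposited table placed most signal in a copy row. Coding sequence was found in GENCODE for 83 members. Of these, 63 had no coding stretch of 50 bases in the transcripts of another row, 20 had one, and 11 had at least 50% of such stretches in 1 other row. Rps27, a small subunit zinc finger protein, is the extreme: all of its coding stretches are also in Rps27rt. Rps27 read, in FPKM, 7.80, 6.05 and 6.72 in Aclyf/f preadipocytes, 98.9, 4.10 and 8.0 in Acly-/- preadipocytes, 6.30, 5.68 and 3.61 in Aclyf/f adipocytes and 7.96, 6.96 and 7.12 in Acly-/- adipocytes, with 1 Acly-/- preadipocyte library far above the other 11. Rps27rt read 3386, 2885 and 2465 in Aclyf/f preadipocytes, 2159, 2855 and 1959 in Acly-/- preadipocytes, 1750, 1317 and 1361 in Aclyf/f adipocytes and 2238, 2123 and 2351 in Acly-/- adipocytes, and took 95.6% of the pair's sum in that library and up to 99.9% in the others. The share in the copy row was 94.8% to 97.4% for Rpl30 with Gm12191, 85.0% to 94.4% for Rpl26 with Gm15772 and 85.1% to 92.0% for Rpl34 with Rpl34-ps1.

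Adding both rows changed what these members show. Rps27 with Rps27rt averaged 2919 ± 461 FPKM in Aclyf/f preadipocytes and 1481 ± 239 in Aclyf/f adipocytes (log2 fold change -0.98, SE 0.15, adjusted p = 4.79e-05), and 2244 ± 114 in Acly-/- adipocytes, 0.61 above Aclyf/f adipocytes (SE 0.15, adjusted p = 0.00375). The row Rps27 alone was called in no contrast. Rpl30 summed with its copy fell by 0.44 with differentiation in Aclyf/f cells (SE 0.12, adjusted p = 0.00394) in place of 0.84, and its difference between genotypes was 0.64 (SE 0.16, adjusted p = 0.00578) in place of 1.26. For Rpl26 the change in Aclyf/f cells became -0.22 (SE 0.10, adjusted p = 0.0584), and for Rpl34 that in Acly-/- cells became -0.03 (SE 0.08, adjusted p = 0.722). Among the 60 tested members with no such stretch in another row, 51 rose with Acly loss in adipocytes (85.0%, against 25.6% of all tested genes). With differentiation in Aclyf/f cells 42 of them fell (70.0%, against 36.0%) and none rose. Between genotypes 33 differed, toward higher values in Acly-/- cells (55.0%, against 23.7%). Sequence shared with annotated genes that have no row was not left out of this class. Of 83 members, 67 had at least 50% of their stretches in other annotated genes. The checks on copy rows and shared sequence were chosen after the data were seen.

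Base composition varied with the member values within groups. Across 80 members, the deviation of a library from its group mean correlated with GC content of the coding sequence at Spearman 0.79 in the third Acly-/- preadipocyte library and at -0.72 and -0.56 in the other 2 of that group, and at 0.68, -0.54 and -0.33 across 10846 other genes. In the remaining 9 libraries the member value lay between -0.42 and 0.45. The 27 members lowest in coding GC (39.9% to 50.4%) had a median of -0.44 for differentiation in Aclyf/f cells and 0.48 for the difference between genotypes, and the 26 highest (54.7% to 61.6%) had -0.16 and 0.18. Other genes in the same GC ranges had medians of -0.11 and 0.14, and of 0.14 and -0.19. After a smooth curve on GC, fitted over genes that are not members, was subtracted from each library, the medians were -0.40 and 0.40 in the low class and -0.31 and 0.34 in the high one. The corrected values called 66 members lower with differentiation in Aclyf/f cells, 73 higher with Acly loss in adipocytes and 51 for the difference. These counts were no smaller than before, but the share of all genes called rose as well. In the same contrasts and directions it was 38.9%, 29.9% and 26.6% of 10926 genes, against 36.0%, 25.6% and 23.7% of 11777 before. This correction was also chosen after the data were seen.

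The member median kept its sign under 6 further scalings for the adipocyte contrast of genotypes, for differentiation in Aclyf/f cells and for the difference between genotypes. It ran from 0.24 to 0.52 for Acly loss in adipocytes, with 46 to 69 members called higher. For differentiation in Aclyf/f cells it ran from -0.43 to -0.21, with 41 to 61 called lower, and for the difference from 0.22 to 0.38, with 35 to 52 called higher. The lowest sizes for the first 2 came from quantile normalization, which forces the same distribution on every library. Against all tested genes, the member median for Acly loss in adipocytes stood 0.48 to 0.50 higher as deposited and under the other 5 scalings. Those 5 divide each library by a single factor, which shifts members and all genes alike, so they could hardly change this distance. Quantile normalization is free to change it, and under it the distance was 0.22. In that contrast equal FPKM sums put the median of all genes at -0.09, and scaling on 1000 abundant other genes put it at -0.12. With equal sums, 36.4% of all calls were higher in place of 46.7%, and with the 1000 abundant genes 33.4%. Equal sums also moved this share from 46.8% to 34.7% for Acly loss in preadipocytes. The 1000 abundant genes moved it from 49.5% to 38.9% for differentiation in Acly-/- cells and from 47.3% to 36.9% for the difference, where the median of all genes was -0.10 and -0.11.

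Small medians depended on the scaling. For Acly loss in preadipocytes the member median was 0.11 as deposited, 0.02 with equal sums and -0.003 under quantile normalization. For differentiation in Acly-/- cells it was -0.01 as deposited, 0.06 under quantile normalization and -0.13 with the 1000 abundant genes. Under the last of these, 22 of 81 members were called lower, beside 37.4% of all tested genes. The sign of the median in these contrasts thus differed between scalings.

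**Figure D5:**
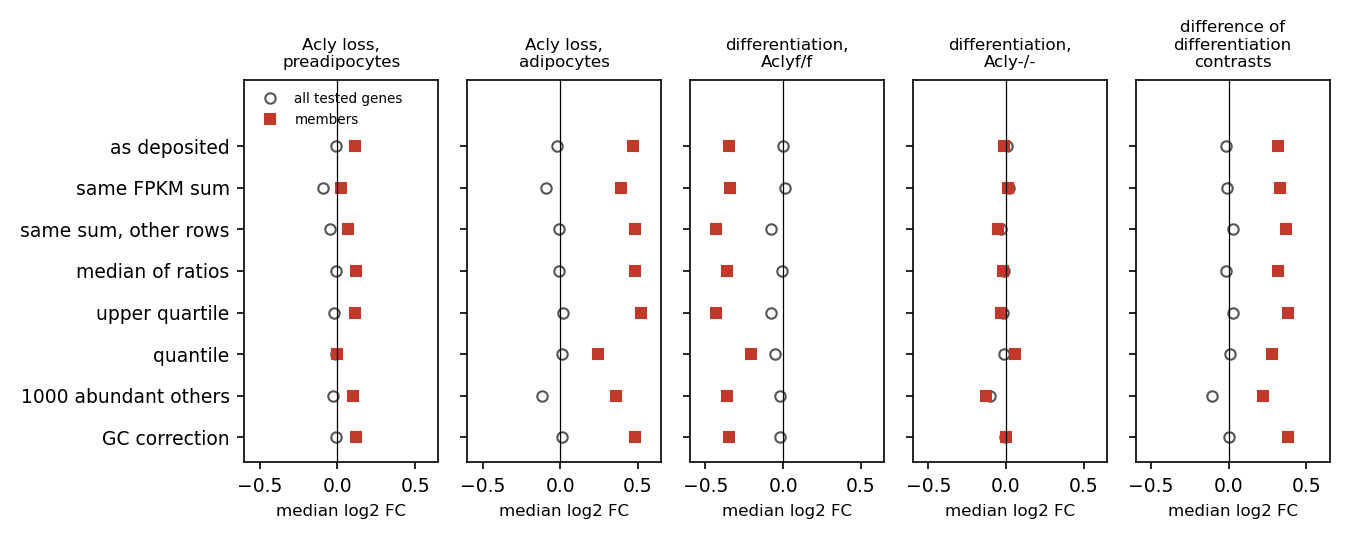
Median log2 fold change (horizontal axes) of the tested members (squares) and of all tested genes (open circles) in 5 contrasts under the deposited values, 6 scalings and the GC correction. Squares stay right of 0 for Acly loss in adipocytes (0.24 to 0.52), left of 0 for differentiation in Aclyf/f cells (-0.43 to -0.21), and around 0 for differentiation in Acly-/- cells (-0.13 to 0.06).

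Other short or abundant genes had medians nearer 0 or of the other sign. Tested genes outside it with a transcript of at most 1000 bases, 809 in number, had a median of 0.21 for differentiation in Aclyf/f cells and -0.04 for Acly loss in adipocytes. The 750 others with a mean of at least 100 FPKM had medians of -0.04 and 0.10. Of these abundant genes 41.9% fell with differentiation in Aclyf/f cells, 41.1% rose with Acly loss in adipocytes and 35.6% were called higher for the difference, each above the share of all tested genes. The family was not tested against them. The 77 mitochondrial ribosomal proteins, which serve translation inside mitochondria, went the other way. With differentiation in Aclyf/f cells 65 rose (84.4%) and 2 fell (median 0.66), against 36.5% and 36.0% of all tested genes. With Acly loss in adipocytes 2 rose and 30 fell (39.0%, median -0.16), against 25.6% and 29.2%.

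Genes listed for TOP mRNAs outside the family, most of them translation factors, moved in the same direction as the family in most cases. The list also holds Tpt1, Naca, Btf3, Nap1l1 and Npm1. Of 18, 11 fell (61.1%) and none rose with differentiation in Aclyf/f cells (median -0.27), against 36.0% of all tested genes called lower. With Acly loss in adipocytes 13 rose (72.2%) and 1 fell (median 0.35), against 25.6% of all tested genes called higher. Between genotypes 12 differed (66.7%) in the direction of the family, against 23.7% of all tested genes. Eef1a1, named after its values were seen, is the factor that brings aminoacyl-tRNA to the ribosome. It read, in FPKM, 4670, 5275 and 5073 in Aclyf/f preadipocytes, 5545, 5279 and 5818 in Acly-/- preadipocytes, 3458, 3749 and 3777 in Aclyf/f adipocytes and 4902, 5088 and 5228 in Acly-/- adipocytes. Aclyf/f adipocytes had the lowest values. Eef1g, a subunit of its exchange factor, averaged 461 ± 29.2 FPKM in Aclyf/f and 797 ± 79.5 in Acly-/- adipocytes (log2 fold change 0.78, SE 0.08, adjusted p = 3.57e-06), and Eif3e fell most in Aclyf/f cells, by 1.06 (SE 0.09, adjusted p = 1.00e-07). Eif4b, a helicase cofactor, was lower with Acly loss in preadipocytes (-0.64, SE 0.07, adjusted p = 8.34e-06) and in adipocytes (-0.25, SE 0.07, adjusted p = 0.0076).

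Many ribosome production genes were higher with Acly loss in adipocytes, where 25.6% of all tested genes were called higher and 29.2% lower. Of 51 nucleolar processing and assembly factors, 36 rose and 4 fell with Acly loss in adipocytes (median 0.39), led by the helicase Ddx21 at 1.00 (SE 0.08, adjusted p = 4.65e-07) and Nop58, a core protein of box C/D small nucleolar particles, at 0.87 (SE 0.12, adjusted p = 5.19e-05). With differentiation in Aclyf/f cells 16 rose (31.4%) and 18 fell (35.3%), near the shares of all tested genes (median -0.02): Nop58 fell by 1.16 and nucleolin (Ncl) by 0.81, while Rcl1, an 18S processing factor, rose by 1.77. In Acly-/- cells 30 rose (58.8%) and 2 fell (3.92%), against 30.4% and 31.0% of all tested genes. Of 15 genes of the RNA polymerase I machinery, which transcribes ribosomal RNA, 7 rose and none fell with Acly loss in adipocytes (median 0.23), led by the largest subunit Polr1a at 0.57 (SE 0.09, adjusted p = 8.94e-05). With differentiation in Aclyf/f cells 2 rose (13.3%) and 6 fell (40.0%), the latter near the 36.0% of all tested genes (median -0.19). Taf1d fell furthest, at -1.02 (SE 0.14, adjusted p = 1.20e-05).

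Dedicated chaperones that escort single ribosomal proteins were divided. Of 7, 2 rose (28.6%) and 3 fell (42.9%) with Acly loss in adipocytes, against 25.6% and 29.2% of all tested genes. Heatr3, which serves Rpl5, was higher by 0.56 (SE 0.07, adjusted p = 3.03e-05) and Pdcd2l lower by 0.69 (SE 0.12, adjusted p = 0.000244). Of 18 regulators of TOP mRNAs and mTORC1, 3 rose (16.7%) and 7 fell (38.9%) in that contrast (median -0.12). Myc, a transcription factor known to drive ribosome production, was among the 3 that rose, at 25.9 ± 3.35 FPKM in Aclyf/f and 53.6 ± 1.43 in Acly-/- adipocytes (log2 fold change 1.03, SE 0.09, adjusted p = 5.95e-07). The 7 that fell are not named here, and the part of Myc in the member values was not tested. With differentiation in Aclyf/f cells 8 of the list rose (44.4%) and 4 fell (22.2%), against 36.5% and 36.0% of all tested genes. Mtor was among the former, at 0.89 (SE 0.07, adjusted p = 8.17e-08).

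Members with and without a pyrimidine run at the annotated start had near-equal medians. Of the 32 tested members with a run of at least 8, 20 fell with differentiation in Aclyf/f cells (median -0.34) and 27 rose with Acly loss in adipocytes (median 0.49). Of the 28 with a shorter run, 20 fell (median -0.35) and 23 rose (median 0.45). Among all tested genes, 36.0% were called lower in the first contrast and 25.6% higher in the second. In the windows shown above, Rpl35 and Rps25 have runs of 18 and 14, and Rplp2 and Rpl22l1 have runs of 10. Those windows were picked by how their members moved. The part of the run in the member values was not tested.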

How the data were processed

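RNA-seq of 12 libraries (Trizol RNA, TruSeq libraries) was used as a single table. The authors deposited 1 FPKM value per gene symbol and library, per the file headers, with a floor of 0.01. Build mm10, Cufflinks 2.2.1, Bowtie2 2.2.6 and bcl2fastq are listed in the submitters' processing notes. What each tool did, the annotation, the strand setting and the handling of multiply mapped reads were not given in the sources used here. Multiply mapped reads can be split between members and their copies. Fragment totals were estimated from the steps between low FPKM values, at 7050000 to 13600000 fragments per library.

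From the deposited FPKM, log2(FPKM + 1) was taken for the 11777 genes that reached 1 FPKM in 3 or more libraries, and fitted with limma 3.58.1 (R 4.3.3, trend on mean level, 4 group means). Fold changes on this scale understate low genes. The 5 contrasts were Acly loss in preadipocytes and in adipocytes, differentiation in each genotype, and the difference between the latter. Benjamini-Hochberg adjustment covered all 11777 genes. Shares were compared by exact permutation over libraries. The script was tested on simulated data. Summaries and plots used matplotlib 3.10.9, scipy 1.17.1, pandas 2.3.3 and numpy 2.4.6 in Python 3.11.15. Start windows came from RefSeq (GRCm38.p6) and transcript sequences from GENCODE.

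Members, gene lists and tests were chosen with earlier results of these data known. Members named were the 3 highest and 3 lowest per contrast, before and after subtraction of the member median, paralogs with partners, the 3 highest and 3 lowest by mean FPKM, those under the filter, and Rps6, Rpl5 and Rpl11. Lists covered translation factors and other proteins with TOP mRNAs, other ribosomal protein genes, RNA polymerase I, nucleolar factors and chaperones. Further lists held TOP and mTORC1 regulators, p53, mitochondrial ribosomal proteins, and markers of adipocytes, preadipocytes, leukocytes, endothelium and mesothelium or epithelium. From each, up to 2 called genes per direction were named. Alternatives were other scalings, pseudocounts, filters, fits and left-out libraries. Those on copy rows, shared sequence and GC were added after the data were seen. Single values of some listed genes are not reported here.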

Additional observations from a re-analysis of the deposited data

Results flagged for a closer look

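By the test of the difference itself, 40 members changed with differentiation by different amounts in the 2 genotypes, all toward higher values in Acly-/- cells. Among the members named by the rule, the log2 difference between genotypes was 1.26 for Rpl30, 0.88 for Rpl21, 0.84 for Rpl35, 0.83 for Rpl23, 0.78 for Rps25, 0.76 for Rps24 and 0.67 for Rps27l. It was 0.49 for Rpl23a, 0.49 for Rps4x, 0.48 for Rpl7, 0.47 for Rpl22, 0.42 for Rpl5 and 0.42 for Rps12. The smallest were 0.39 for Rpl24, 0.38 for Rpl11, 0.38 for Rpl39, 0.37 for Rpl3, 0.32 for Rpl7l1 and 0.31 for Rpl10. The value for Rpl30 was 0.64 once its copy row was added. The call was lost in 15 alternatives for Rps12 and for Rpl39, 12 for Rps27l, 8 for Rpl11, 7 for Rpl7l1 and for Rpl10, and 5 for Rpl24. The highest adjusted p among these was 0.13 for Rps12, 0.244 for Rpl39, 0.195 for Rps27l, 0.109 for Rpl11, 0.0852 for Rpl7l1, 0.288 for Rpl10 and 0.064 for Rpl24. Of these lost calls, leaving out 1 library accounted for 11, 9, 9, 6, 6, 4 and 4 in the same order. The other 12 named members kept the call in each alternative run. Base composition differed among libraries of a group, and its part in these differences was tested only through the GC correction. Under it 51 members were called higher, beside 26.6% of all genes.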

How the results depend on the processing

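Across 558 combinations of a comparison and an alternative, 505 kept their direction and size, and of 78 calls on named genes 49 held in all alternatives run. Of 2009 settings of these calls, 158 lost the call and 1 reversed: Rpl10 for Acly loss in adipocytes was -0.00061 under quantile normalization. For Acly loss in preadipocytes, quantile normalization gave a median of -0.003 and 7 members lower, beside 22.8% of all tested genes. No filter on low values gave 1 lower, a fit of only 2 groups 1 lower, and the GC correction 22 members called against the member median. For Acly loss in adipocytes the median was 0.39 with equal sums, 0.24 under quantile normalization and 0.36 with 1000 abundant genes, and the members called against the member median were 22 under quantile normalization, 26 in a fit of 2 groups and 22 with the GC correction. For differentiation in Aclyf/f cells the members called higher were 7 under quantile normalization, beside 34.0% of all tested genes. The number of members was 1 with sums over other rows, with the upper quartile, without a filter and with the GC correction. It was 0 among members with no coding stretch in another row. The median there was -0.43 with sums over other rows, -0.43 with the upper quartile and -0.21 under quantile normalization. For differentiation in Acly-/- cells, 19 members were higher under quantile normalization, and 8, 11 and 22 were lower with equal sums, sums over other rows and 1000 abundant genes, the last with a median of -0.13. Against the member median, 13 were called without a filter and 14 with variances without trend, and for the difference 12 without trend, where the median was 0.22 with 1000 abundant genes. The share of Acly-/- preadipocytes was 19.5% over tested genes and 19.6% without short RNAs. The median percentile of members was 99.3 to 99.5 among the tested genes. Among all rows above the floor, a larger set, it was 99.6 in Acly-/- adipocytes and 99.5 in the other groups. The cause of these shifts was not tested.

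Leaving out 1 library at a time gave these ranges. For Acly loss in preadipocytes, 5 to 16 members were higher, 0 to 3 lower and 9 to 19 called against the member median, with medians of 0.07 to 0.16. For Acly loss in adipocytes, 58 to 69 were higher and 8 to 22 called against the median, with medians of 0.41 to 0.52. For differentiation in Aclyf/f cells, 1 to 2 were higher, 44 to 59 lower and 23 to 36 called against the median, with medians of -0.40 to -0.31. In Acly-/- cells, 4 to 8 were higher, 4 to 7 lower and 12 to 25 called against the median, with medians of -0.05 to 0.05. For the difference, 31 to 46 were higher, 0 to 1 lower and 10 to 23 called against the median, with medians of 0.28 to 0.40.

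Deviations of same-numbered libraries correlated at -0.414 to 0.147, and 4 of 18 pairs were over 0.1. Those 4 each join a preadipocyte and an adipocyte library of the same genotype. Across stages, same-numbered pairs were at 0.123, 0.147 and 0.124 in Acly-/- cells and 0.135, -0.029 and 0.091 in Aclyf/f cells. Pairs of other numbers, over all groups, ran from -0.168 to 0.416. Whether numbers pair the libraries within a genotype was not tested. With the replicate block the members called higher and lower were 9 and 0 for Acly loss in preadipocytes, 64 and 0 in adipocytes, 1 and 49 for differentiation in Aclyf/f cells, 5 and 5 in Acly-/- cells, and 38 and 0 for the difference. Depth was not limiting for most members, which lie far above 100 FPKM, but values under the filter cannot be compared.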
